A study of Homo sapiens with 16 samples.

Results

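The genes described here are SRF and the cofactor genes whose products bring signals to it, MRTFA, MRTFB, ELK1, ELK3 and ELK4. These 6 genes were chosen by name out of 35810 genes summed from the transcript tables, with earlier results of these data known. They were followed in 16 libraries of pancreatic progenitors made from SA121 NGN3-GFP human embryonic stem cells, a single line in which green fluorescent protein reports the endocrine factor NEUROG3. All groups were on day 19 of differentiation. Latrunculin B (LatB), a drug that binds actin monomers and depolymerises filaments, was given at 0.5 µM for 3 h (n = 3), 6 h (n = 3), 12 h (n = 2) or 24 h (n = 3). Control 0 h (n = 3) had no drug and is tagged as vehicle in its labels, although the treatment text names the vehicle DMSO only for control 24 h (n = 2). The labels do not say whether replicates were separate cultures, so p-values measure the spread between these samples, which may be technical.

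SRF is a DNA-binding protein that sits on a short promoter element, the CArG box, and is switched on by partner proteins of different kinds. The MRTF coactivators bind monomeric actin and are kept from SRF by it, so they read the state of the actin cytoskeleton, and they serve genes of actin, myosin and adhesion. The ternary complex factors ELK1, ELK3 and ELK4 are ETS proteins that are phosphorylated by the ERK kinases and serve immediate early genes. RNA levels do not show where these proteins are in the cell or whether they are active.

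The libraries held 23609727 to 33515398 estimated reads, and 16705 genes were tested. The label was checked against 11 pancreatic progenitor markers, of which 10 reached 1 CPM (read counts scaled by library size and composition) in every group, with PTF1A below it. Markers of other cell types were present too. The sum of 4 pluripotency markers was 387 to 432 CPM in the controls and 202 to 266 CPM in the LatB libraries. That of 4 liver markers was 501 to 713 CPM in the controls. The source of these levels was not tested. The 12 h replicates differed most, with a Pearson correlation of log2 CPM across genes of 0.967 against 0.980 to 0.986 in other replicate pairs. Replicate 2 at 12 h also had the highest sums of 8 mesenchymal markers, at 1066 CPM against 172 to 447 in the other libraries, and of 4 endothelial markers, at 40.5 CPM against 3.71 to 16.2. The calls of the 6 genes and the list counts at 12 h are given without it as well, which leaves 1 library there and takes the spread from the other groups. In bulk RNA, fewer cells of a type and less RNA per cell cannot be told apart.

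SRF (ENSG00000112658.8) lies on chromosome 6, 43171269 to 43181506, on the plus strand of GRCh38, and has 1 annotated transcript. MRTFA (ENSG00000196588.21) lies on chromosome 22, 40410281 to 40636719, and MRTFB (ENSG00000186260.17) on chromosome 16, 14071319 to 14266773. ELK1 (ENSG00000126767.18) lies on chromosome X, 47635521 to 47650604, ELK3 (ENSG00000111145.8) on chromosome 12, 96194375 to 96269824, and ELK4 (ENSG00000158711.14) on chromosome 1, 205597556 to 205632011. The library kit named in the labels does not mark strand, so reads in a stretch shared with a gene on the opposite strand cannot be assigned. ELK4 shares 5363 bases with MFSD4A, which had 46.6 reads per library on average, and MFSD4A reads are few beside the 775 to 1865 of ELK4. MRTFA shares 9 bases with SGSM3. Long noncoding genes on the opposite strand that were not among the summed genes overlap as well, so their reads are unknown. MRTFA-AS1 shares 4908 bases with MRTFA. Unnamed ones share 8458 bases with MRTFB, and 6088 and 1177 bases with ELK3.

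All 6 genes had a RefSeq promoter window (GRCh38.p14; 250 bases before to 50 after the start), 13 windows in all. A pair of elements was searched on both strands: the CArG box, which SRF binds, and the ETS site CCGGAAGT. Both windows that held a match are shown, since SRF itself carries the element of its own protein and ELK4 that of its own family. Capitals mark the matches, and each window reads 5′ to 3′ on the strand of its gene. The SRF window spans chr6:43171019-43171318 (+) and the ELK4 window chr1:205631962-205632261 (-).
SRF: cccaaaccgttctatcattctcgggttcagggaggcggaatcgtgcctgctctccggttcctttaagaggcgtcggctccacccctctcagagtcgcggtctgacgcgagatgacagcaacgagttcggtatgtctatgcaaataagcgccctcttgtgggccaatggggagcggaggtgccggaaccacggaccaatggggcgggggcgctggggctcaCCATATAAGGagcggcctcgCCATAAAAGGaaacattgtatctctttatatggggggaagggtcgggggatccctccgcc
ELK4: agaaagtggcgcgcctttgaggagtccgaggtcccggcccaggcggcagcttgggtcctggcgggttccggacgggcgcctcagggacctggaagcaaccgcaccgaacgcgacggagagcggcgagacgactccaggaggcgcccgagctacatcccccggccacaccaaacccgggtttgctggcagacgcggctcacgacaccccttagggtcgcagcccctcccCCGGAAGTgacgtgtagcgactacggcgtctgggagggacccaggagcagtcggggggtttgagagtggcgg
The SRF window holds 2 CArG boxes, at -30 to -21 and at -10 to -1 from the start. A CArG box was present in 1.29% of 35116 RefSeq windows, and 2 or more in 0.0313%. The ETS site of ELK4 lies at -22 to -15, and 4.14% of windows held such a site. The other 11 windows of these genes held neither element. The matches describe letters in a window and are not measured binding.

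The levels of the genes were compared with each other in TPM, which accounts for transcript length. In control 0 h the order was MRTFB (25.4 ± 2.43 TPM, SD, n = 3), MRTFA (24.9 ± 2.35), SRF (21.7 ± 0.21), ELK1 (14.3 ± 0.62), ELK4 (8.46 ± 0.51) and ELK3 (2.26 ± 0.41). The ranges of MRTFB and MRTFA overlapped, and all other neighbours in this order were apart. The same order held in control 24 h except that SRF and MRTFA, which overlapped, exchanged places. At 3 h SRF stood at 15.7 ± 0.74 TPM, below ELK1 at 17.7 ± 1.02, and at 6 h it stood at 14.4 ± 0.54, again below ELK1 at 16.6 ± 2.14, with ranges apart at both times. The order at 6 h rests in part on few reads. The minor transcript ELK1-202 had 13 to 46 reads per library there and 7.08% to 22.6% of the ELK1 TPM. At 12 h SRF (14.9 ± 0.017 TPM, n = 2) and ELK1 (15.8 ± 3.27) overlapped, as did ELK4 (6.08 ± 0.35) and ELK3 (4.38 ± 2.40). At 24 h SRF had the highest mean, 24.6 ± 3.15 TPM, overlapping MRTFA at 22.7 ± 0.65. ELK3 was the lowest of the 6 in every group, between 1.90 TPM at 6 h and 4.71 TPM at 24 h.

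**Figure D1:**
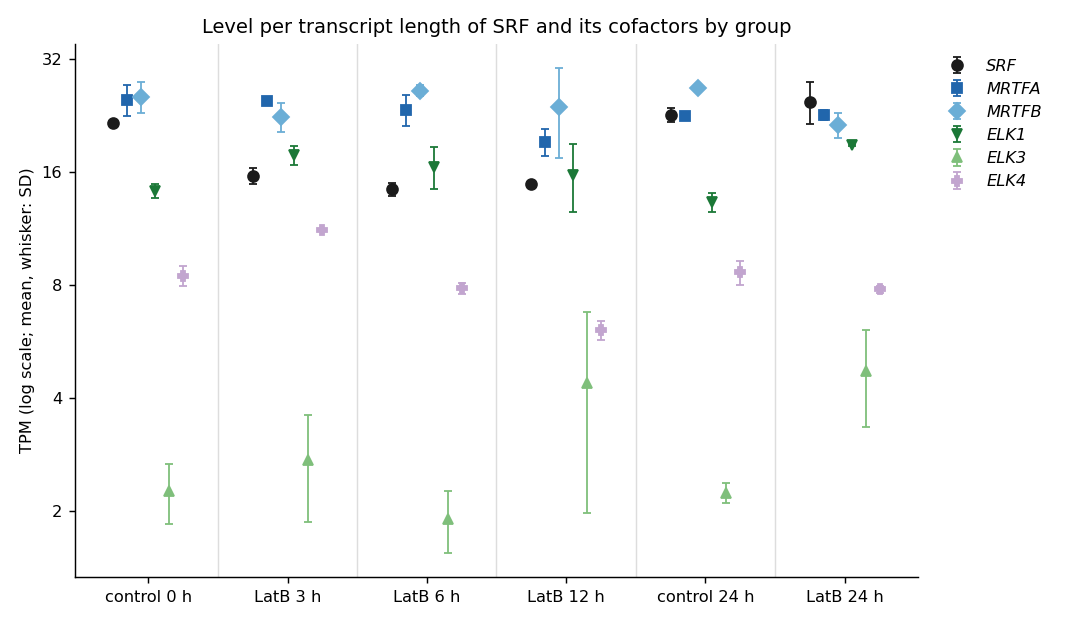
TPM on a log scale for the 6 genes in each group (points: mean; whiskers: SD; n = 2 or 3 libraries). SRF lies above ELK1 in both control groups and at 24 h of LatB, and below it at 3 h and 6 h.

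Each LatB group was then compared with its control to ask which of these genes changed their RNA level after actin was depolymerised. At 3 h 4 of the 6 genes were called (edgeR adjusted p under 0.05), with SRF lower and MRTFA, ELK1 and ELK4 higher, where 31.6% of all genes tested were called, 16.8% higher and 14.7% lower. At 6 h 4 were called, SRF and ELK4 lower and MRTFA and ELK1 higher, against 43.3% of all genes, 22.9% higher and 20.4% lower. At 12 h 3 were called, SRF and ELK4 lower and ELK3 higher, against 35.8%, 19.1% higher and 16.8% lower. These 3 comparisons share the control 0 h libraries. No control was taken at 3, 6 or 12 h, so drug and elapsed time cannot be told apart in these comparisons. At 24 h, against control 24 h, 3 were called, ELK1 and ELK3 higher and ELK4 lower, where 40.8% of genes were called, 21.9% higher and 18.8% lower. With only 6 genes and such shares the counts are no result about the set, and the account below goes by gene. Between the controls none of the 6 was called at 24 h against 0 h, and 0.251% of all genes were, 0.0299% higher and 0.221% lower. Over all genes this made 42 calls with edgeR, 265 with DESeq2 and 1414 at an unadjusted p under 0.05. Between controls the log2 changes of the 6 genes ran from -0.14 (ELK3) to 0.061 (SRF), none past an unadjusted p of 0.05. Without scaling between libraries, 36.1% of the calls at 3 h were higher in place of 53.3%, and 37.7% in place of 52.8% at 6 h, where the median of all genes moved to -0.10.

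**Figure D2:**
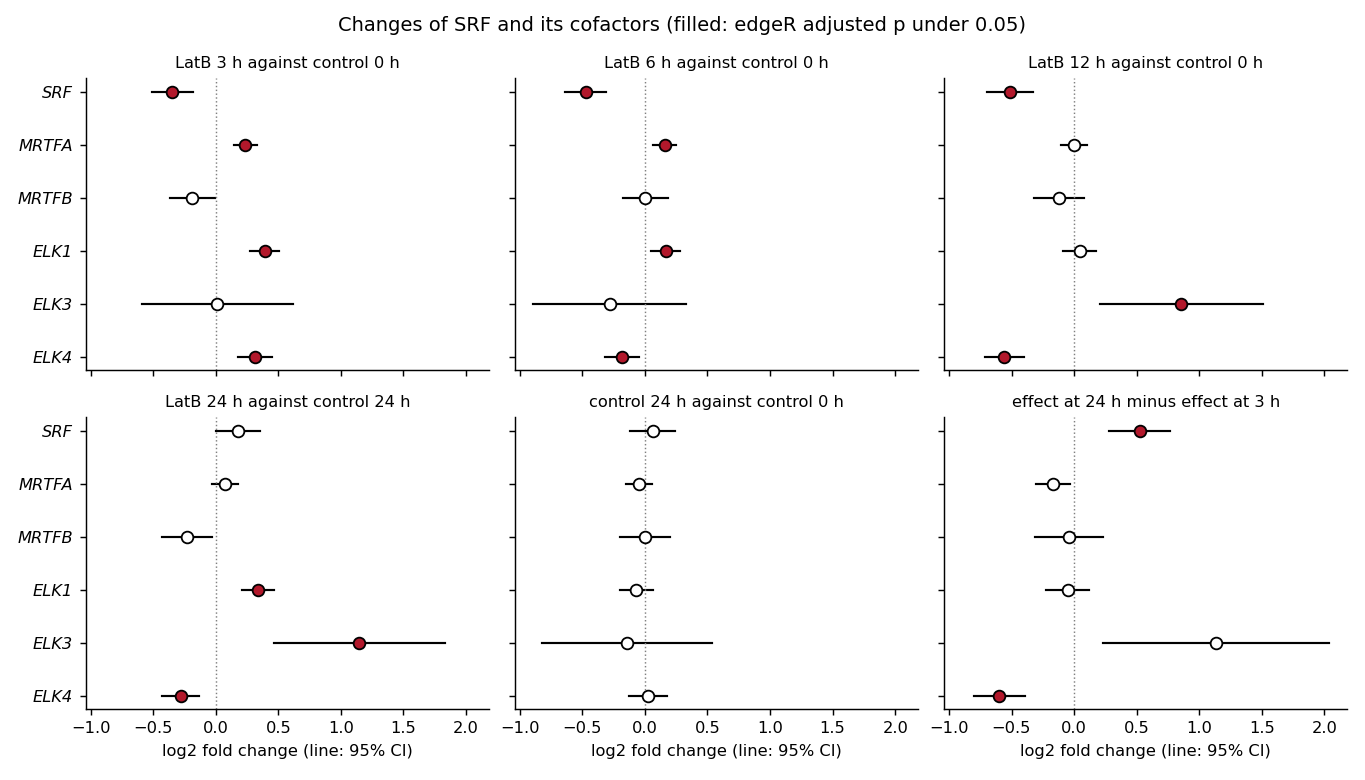
Log2 fold changes of the 6 genes (points) with 95% confidence intervals (lines) in 6 edgeR comparisons; filled points had an adjusted p under 0.05. SRF lies left of 0 at 3, 6 and 12 h and right of 0 in the difference of effects, ELK4 moves from right to left between 3 h and 12 h, and no point is filled between the controls.

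SRF fell within 3 h, stayed low to 12 h and was back at or above its control level at 24 h. The 3 libraries of control 0 h had 70.3, 72.2 and 71.2 CPM, and those of control 24 h had 71.6 and 77.0 CPM. After LatB they had 56.4, 57.3 and 54.4 CPM at 3 h, 53.4, 49.3 and 51.2 CPM at 6 h, and 53.2 and 46.9 CPM at 12 h. All 8 of these LatB libraries lay below all 5 controls. SRF fell by 21.3% at 3 h (log2 fold change -0.35, SE 0.07, edgeR adjusted p 0.00309). It fell by 28.0% at 6 h (-0.47, SE 0.08, edgeR adjusted p 0.000220) and by 29.8% at 12 h (-0.51, SE 0.09, edgeR adjusted p 0.000489). All 3 calls held under every alternative tried, and against control 24 h the changes were -0.41, -0.53 and -0.57. Without replicate 2 at 12 h the change was -0.42.

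At 24 h the SRF libraries had 90.1, 72.6 and 89.5 CPM, so replicate 2 lay inside the range of control 24 h and replicates 1 and 3 above every control. The change against control 24 h was 0.18 (SE 0.08, 95% interval -0.0016 to 0.36), which missed the threshold (edgeR adjusted p 0.106). It was called without LatB 24 h replicate 2 (0.27, adjusted p 0.00457) and against control 0 h (0.24, adjusted p 0.0197). The return itself was tested inside the drug series: from 6 h to 24 h SRF rose by 63.8% (0.71, SE 0.08, edgeR adjusted p 1.13e-05), with all 3 libraries of 24 h above all of 6 h. In that step 37.9% of genes were called, 19% higher and 18.9% lower, and 4 of the 6 genes here were among them. Without scaling, 73.8% of those calls were higher in place of 50.1%, with a median of all genes of 0.14, and the SRF change stayed called.

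**Figure D3:**
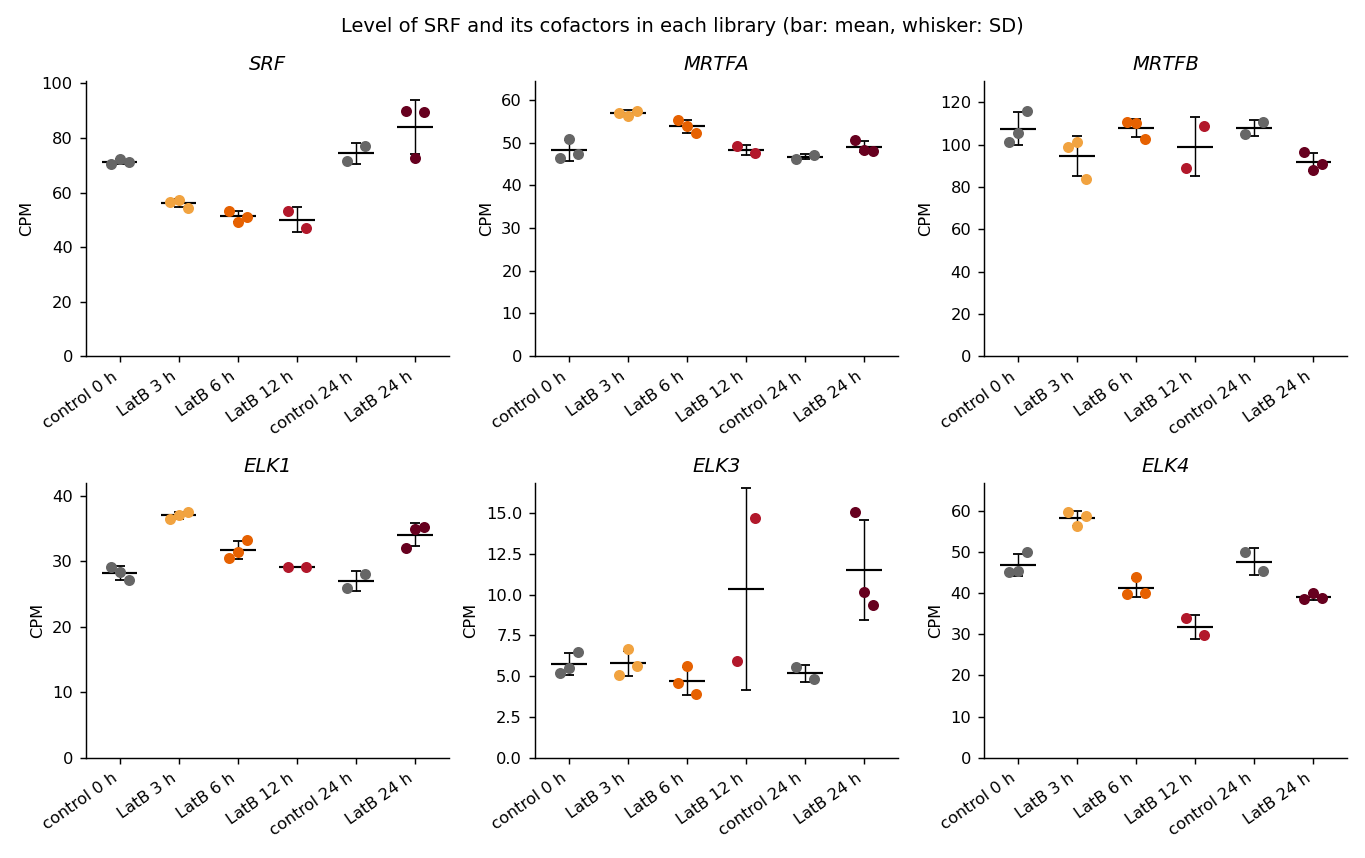
CPM of each gene in every library (points), with the mean (bar) and SD (whisker) of each group; each vertical axis starts at 0. The 8 SRF libraries of LatB 3, 6 and 12 h lie between 46.9 and 57.3 CPM, below all 5 controls, and ELK4 peaks at 3 h and is lowest at 12 h.

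MRTFA was called higher at 3 h and 6 h, and MRTFB at no time. MRTFA, which carries actin-binding RPEL motifs, had 46.4, 50.9 and 47.3 CPM in control 0 h and 46.2 and 47.0 CPM in control 24 h. It had 56.9, 56.1 and 57.5 CPM at 3 h and 55.2, 53.8 and 52.3 CPM at 6 h, all above every control. At 12 h it had 49.1 and 47.5 CPM and at 24 h 50.5, 48.3 and 48.1 CPM. The 12 h libraries lay inside the range of control 0 h, and the 24 h libraries lay slightly above both of control 24 h. MRTFA rose by 17.9% at 3 h (log2 fold change 0.24, SE 0.04, edgeR adjusted p 0.000856) and by 11.5% at 6 h (0.16, SE 0.04, edgeR adjusted p 0.00915). From 6 h to 24 h it fell by 8.89% (-0.13, SE 0.04, edgeR adjusted p 0.0241), a step that was 0.00070 without scaling and lost its call without LatB 6 h replicate 1 or 2 or LatB 24 h replicate 2 or 3. The call at 6 h was lost in 5 of 20 alternatives, with changes from 0.0061 (length offset) to 0.15 (no filter) and 0.12 without LatB 6 h replicate 1 (adjusted p 0.0693), and the change was negative in 3 more, the limma fits.

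The rise of MRTFA depended on the unit. On log2(TPM + 1) its change was -0.0052 at 3 h (limma-trend adjusted p 0.977) and -0.087 at 6 h (adjusted p 0.432), and at 12 h it was called lower (-0.35, adjusted p 0.0109). Transcript MRTFA-201 took 82.5% to 95.6% of the MRTFA reads in every library, but 40.0% to 64.8% of its TPM. The short transcript MRTFA-206 had 22 to 78 reads per library and 16.9% to 38.8% of the TPM. Another, MRTFA-207, had 16 to 42 reads in 6 libraries and 0 in the other 10, among them both of control 24 h, so that a few reads moved the TPM of the gene. In TPM the 3 libraries of 3 h averaged 24.8 ± 0.62 and those of control 0 h 24.9 ± 2.35.

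MRTFB, the second coactivator of this type, had 101, 105 and 116 CPM in control 0 h and 105 and 111 CPM in control 24 h. It had 98.8, 101 and 83.6 CPM at 3 h, 111, 110 and 103 CPM at 6 h, 89.1 and 109 CPM at 12 h, and 96.5, 88.2 and 91.1 CPM at 24 h. Its libraries of 3 h and of 24 h lay below all of their own controls, by a small gap, and those of 6 h and 12 h overlapped control 0 h. MRTFB was called against control at none of the 4 times. Its changes were -0.19 at 3 h (SE 0.08, edgeR adjusted p 0.109), 0.0040 at 6 h, -0.12 at 12 h and -0.23 at 24 h (SE 0.09, edgeR adjusted p 0.0637). The change at 24 h was called under DESeq2 (adjusted p 0.0472) and 5 other alternatives, and that at 3 h without scaling (-0.27, adjusted p 0.0408) and with protein-coding transcripts alone. The fall from 6 h to 24 h passed the threshold narrowly (-0.23, SE 0.08, edgeR adjusted p 0.0438) and lost the call in 12 of 19 alternatives, among them without any 1 library of the 6 except LatB 24 h replicate 1.

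Of the ternary complex factors, ELK1 was higher at 3 h and again at 24 h. It had 29.2, 28.4 and 27.1 CPM in control 0 h and 25.9 and 28.0 CPM in control 24 h. After LatB it had 36.4, 37.1 and 37.5 CPM at 3 h, 30.5, 31.4 and 33.2 CPM at 6 h, 29.1 and 29.2 CPM at 12 h, and 32.04, 34.9 and 35.3 CPM at 24 h. The libraries of 3, 6 and 24 h all lay above the 5 controls, and the 12 h libraries overlapped control 0 h. ELK1 rose by 31.0% at 3 h (log2 fold change 0.39, SE 0.05, edgeR adjusted p 0.000108), by 12.2% at 6 h (0.17, SE 0.05, edgeR adjusted p 0.0233) and by 26.4% at 24 h (0.34, SE 0.06, edgeR adjusted p 0.000631). At 12 h it was at 0.045 and was not called. The call at 24 h held in every alternative tried. The call at 3 h was lost on both log2 TPM scales (0.29 and 0.31, limma-trend adjusted p 0.0575 and 0.0573), and that at 6 h was lost in 11 of 20 alternatives, among them without scaling (0.075), without control 0 h replicate 2 (0.15) or 3 (0.14) and without LatB 6 h replicate 2 (0.15) or 3 (0.11).

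ELK4 was higher than control at 3 h, fell from 3 h to 6 h and was lower than control at 12 h. Its libraries had 45.0, 45.4 and 49.9 CPM in control 0 h and 49.9 and 45.2 CPM in control 24 h. They had 59.6, 56.2 and 58.6 CPM at 3 h, 39.9, 43.9 and 40.0 CPM at 6 h, 33.9 and 29.7 CPM at 12 h, and 38.6, 40.1 and 38.8 CPM at 24 h. All libraries of 3 h lay above, and all later LatB libraries below, the 5 controls. ELK4 rose by 24.4% at 3 h (log2 fold change 0.32, SE 0.06, edgeR adjusted p 0.00170). It fell by 0.56 on the log2 scale at 12 h (SE 0.07, edgeR adjusted p 7.03e-05), and without replicate 2 of that group by 0.46 on the log2 scale. The calls at 3 h and 12 h held in every alternative tried. Smaller falls were called at 6 h (-0.18, SE 0.06, edgeR adjusted p 0.0337) and 24 h (-0.28, SE 0.07, edgeR adjusted p 0.00577). The first lost its call in 9 of 20 alternatives and the second in 5 of 19. Both were lost with an offset for transcript length (-0.014 and -0.13). Leaving out 1 library ended the first without control 0 h replicate 3 (-0.13, adjusted p 0.147), LatB 6 h replicate 1 or replicate 3, and the second without control 24 h replicate 1 (-0.21, adjusted p 0.0986).

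The step from 3 h to 6 h, which uses no control library, was called for ELK4 (-0.50, SE 0.06, edgeR adjusted p 0.000143) and for ELK1 (-0.22, SE 0.05, edgeR adjusted p 0.00917), 2 of the 6 genes. In that step 22.2% of all genes were called, 11.9% higher and 10.3% lower. ELK4 fell by 29.1% and its call held in every alternative, while that of ELK1 was lost on the TPM scales and with the length offset (-0.083).

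ELK3, the ternary complex factor known as Net and as a repressor of SRF target genes in resting cells, was the scarcest of the 6, with 95 to 441 reads per library. It had 5.22, 5.50 and 6.49 CPM in control 0 h and 5.56 and 4.82 CPM in control 24 h. It had 5.08, 6.64 and 5.62 CPM at 3 h and 4.57, 5.64 and 3.94 CPM at 6 h, overlapping control 0 h at both times. At 12 h the replicates had 5.95 and 14.7 CPM, and at 24 h 15.05, 10.1 and 9.34 CPM. The first of the 12 h libraries lay inside the control range, and all 3 of 24 h lay above every control. ELK3 rose by 122% at 24 h (log2 fold change 1.15, SE 0.32, edgeR adjusted p 0.0107), the largest change of the 6 genes in any comparison with a control. The rise from 6 h to 24 h (1.28, SE 0.28, edgeR adjusted p 0.00272) held in every alternative tried. The call at 12 h (0.86, SE 0.30, edgeR adjusted p 0.0412) rested on replicate 2, without which the change was 0.054 (adjusted p 0.909), and it was also lost without any 1 of the control 0 h libraries (0.80, 0.81 and 0.95). At 24 h the call was lost without either control 24 h library (1.25 and 1.05, adjusted p 0.0525 and 0.0785), which leaves 1 control whose spread is taken from the other groups.

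Endothelial and liver marker sums were highest in the same 2 libraries as ELK3. Replicate 2 at 12 h had 14.7 CPM of ELK3 with the sums of 40.5 and 1066 CPM for endothelial and mesenchymal markers given above. Replicate 1 at 24 h had 15.05 CPM of ELK3 with 16.2 CPM of endothelial markers, the second highest sum of the 16 libraries. Its mesenchymal sum, 259 CPM, was below that of control 0 h replicate 1 (279 CPM). The liver sums of these libraries were 1436 and 838 CPM, against 447 to 713 CPM in the other 14. Their progenitor sums were 2215 and 2866 CPM. Control 24 h had progenitor sums of 2843 and 2847 CPM, and LatB 24 h replicates 2 and 3 had 3860 and 3678 CPM. The endocrine marker sum of LatB 24 h replicate 1 was 78.2 CPM, beside 83.8 and 70.5 CPM in control 24 h. LatB 24 h replicates 2 and 3 had endocrine sums of 268 and 241 CPM. Among the 4 endothelial markers, KDR made up most of the sums of 40.5 and 16.2 CPM (37.0 and 15.1 CPM). TEK stayed at or below 0.27 CPM and CDH5 at or below 0.98 CPM in every library. Replicate 2 at 24 h had 10.1 CPM of ELK3 with the lowest endothelial sum of all, 3.71 CPM, and 192 CPM of mesenchymal markers. Without replicate 1 the 24 h change of ELK3 was 0.91 (edgeR adjusted p 0.0379). The part of these markers in the ELK3 level was not tested.

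**Figure D4:**
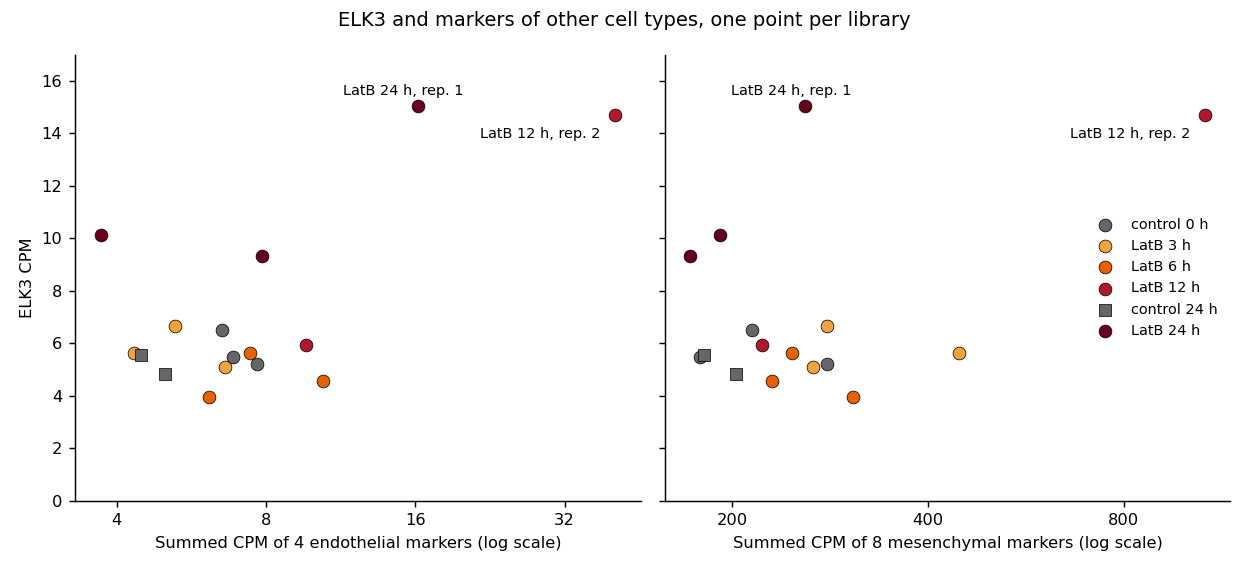
ELK3 CPM against the summed CPM of 4 endothelial (left) and 8 mesenchymal (right) markers on log axes, 1 point per library, coloured by group. LatB 12 h replicate 2 stands apart at 40.5 and 1066 CPM, and LatB 24 h replicates 2 and 3 have 10.1 and 9.34 CPM of ELK3 at endothelial sums of 3.71 and 7.85 CPM, where the highest control has 7.65 CPM.

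Whether the effect of LatB differed between 24 h and 3 h was tested directly. The 24 h effect is against control 24 h and the 3 h effect against control 0 h, so that no library is shared. Only control 24 h is matched in time, so drug and elapsed time cannot be told apart in the 3 h effect. The difference was called for SRF (0.52, SE 0.11, edgeR adjusted p 0.00378) and ELK4 (-0.60, SE 0.09, edgeR adjusted p 0.000523), 2 of the 6 genes, and 27.9% of all genes were called, 14.6% higher and 13.4% lower. Without scaling 69.0% of those calls were higher in place of 52.1%. Both differences held in all 25 alternatives. SRF thus had a lower level than control at 3 h and not at 24 h, and ELK4 a higher level at 3 h and a lower one at 24 h. For ELK3 the difference was 1.14 (SE 0.42, edgeR adjusted p 0.0588) and for MRTFA -0.17 (SE 0.06, edgeR adjusted p 0.0687). ELK1 (-0.051, 95% interval -0.22 to 0.12) and MRTFB (-0.043, 95% interval -0.31 to 0.23) were not called either.

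Genes that the MRTF proteins serve through SRF were lower at all 4 times, including 24 h, when SRF itself was not. Of 29 listed MRTF-SRF targets, all tested, 19 were called lower and 3 higher at 3 h, 24 and 3 at 6 h, 23 and 0 at 12 h, and 20 and 1 at 24 h. The median log2 change of the list was -0.49, -0.79, -0.91 and -0.78 at these times, beside 0.0021, -0.010, 0.011 and 0.0081 over all genes tested, of which 14.7%, 20.4%, 16.8% and 18.8% were called lower. Without replicate 2 at 12 h, 23 were lower and 1 higher, with a median of -0.85. Between the controls none was called, and the median was 0.12. The 3 largest falls at 24 h were in ANKRD1 (-4.23, SE 0.28), TAGLN (-3.55, SE 0.39), which encodes the actin-binding protein transgelin, and ACTC1 (-3.12, SE 0.53), a muscle actin. The mean of TAGLN was 180 ± 13.5 CPM (SD, n = 2) in control 24 h and 15.4 ± 8.49 CPM (SD, n = 3) in LatB 24 h. At 3 h and 6 h the largest falls were in CCN2, CCN1 and ANKRD1, from -3.53 to -5.70, 3 genes that are also targets of the coactivator YAP. Against the trend, SMTN (1.05 at 3 h, 0.48 at 6 h), FHL1 (0.70 and 1.42) and TES (0.25 and 0.38) rose at both of these times. FHL2, which binds SRF and is itself a target, was called lower at 3 h and 6 h and rose by 0.41 at 24 h.

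From 6 h to 24 h 11 of the 29 MRTF-SRF targets were called higher and 7 lower, with a median of 0.14 beside 0.0025 over all genes (13 higher and 5 lower without scaling), and SRF rose by 0.71. In this step 19% of all genes were called higher and 18.9% lower. ACTB, the gene of cytoplasmic beta-actin, was at -0.96 at 6 h and at -0.16 at 24 h, where it was not called. TAGLN was at -1.20 at 6 h and -3.55 at 24 h. Within their promoter windows, 12 of the 25 MRTF-SRF targets with a window held a CArG box (48.0%), against 1.60% of 27305 genes. These genes were listed as SRF targets beforehand, so this share is not an independent result. Among 8 listed ternary complex factor targets with a window, 2 held a CArG box and 0 the ETS site.

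Of 10 listed ternary complex factor targets, 5 were called higher and 0 lower at 3 h, 3 and 3 at 6 h, 0 and 2 at 12 h, and 4 and 0 at 24 h. Their median was 0.47, -0.072, -0.021 and 0.68, beside 0.0021, -0.010, 0.011 and 0.0081 over all genes, and 31.6%, 43.3%, 35.8% and 40.8% of all genes were called in either direction. Without replicate 2 at 12 h, 2 were higher and 1 lower, and the median was 0.33. NR4A1, an orphan nuclear receptor gene, averaged 67.8 ± 5.44 CPM in control 0 h and rose to 219 ± 19.9 CPM (SD, n = 3 each) at 3 h (1.69, SE 0.23, edgeR adjusted p 0.000118). EGR2 and EGR3 rose as well (3.34, SE 0.65, and 1.37, SE 0.44) with group means below 1 CPM. EGR1 was not called at 3 h, fell by 0.54 at 6 h and rose by 1.02 at 24 h, from 2.93 ± 0.072 CPM (n = 2) to 5.97 ± 0.44 CPM (n = 3).

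**Figure D5:**
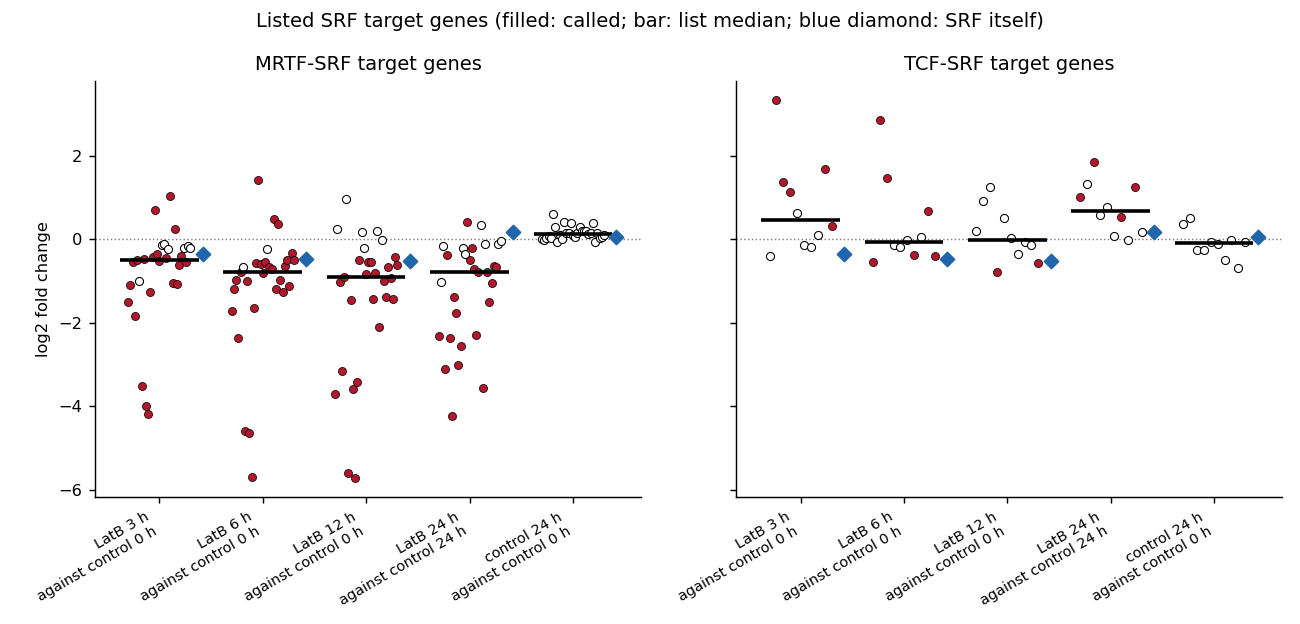
Log2 fold changes of 29 MRTF-SRF targets (left) and 10 ternary complex factor (TCF) targets (right), 1 point per gene, in 5 comparisons; filled points were called, bars are list medians and blue diamonds show SRF. The MRTF-SRF median lies between -0.49 and -0.91 in the 4 LatB comparisons, and SRF lies at 0.18 at 24 h.

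The genes upstream of the ternary complex factors were largely higher early. Of 11 genes of the route from growth factor adaptors through RAS and RAF to ERK, 9 were called higher and 0 lower at 3 h, 7 and 0 at 6 h, 1 and 1 at 12 h, and 2 and 0 at 24 h. Over all genes 16.8%, 22.9%, 19.1% and 21.9% were called higher, so the counts at 12 h and 24 h lay at or below the background. The median was 0.27, 0.29, 0.0084 and 0.060, and without scaling 6 were called higher at 3 h. Without replicate 2 at 12 h, 2 were higher and 0 lower. BRAF, a kinase that acts on MEK, rose from 74.7 ± 2.08 to 144 ± 7.51 CPM (SD, n = 3 each) at 3 h (0.95, SE 0.10) and by 0.99 at 6 h. GRB2 (0.42) and SOS1 (0.43), the adaptor and the exchange factor that load RAS, rose at 3 h.

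Of 17 genes between actin and the MRTF proteins 16 were tested, ABRA being too low, and the calls went both ways: 3 higher and 1 lower at 3 h, 5 and 4 at 6 h, 3 and 5 at 12 h, and 3 and 3 at 24 h, beside 31.6%, 43.3%, 35.8% and 40.8% of all genes called in either direction. Without replicate 2 at 12 h, 3 were higher and 4 lower. Their medians lay between -0.093 and 0.096, and that at 3 h, 0.017, was -0.061 without scaling. The balance of calls at 3 h depended on scaling, with 1 higher and 3 lower without it, and 2 and 3 with RLE. DIAPH1, a formin that builds actin filaments, rose by 0.69 (SE 0.06) at 3 h and by 0.74 (SE 0.06) at 6 h. Its relative DIAPH3 fell by 1.15 at 6 h, 1.44 at 12 h and 1.36 at 24 h on the log2 scale. SCAI, a corepressor of MRTFA, fell by 0.45 at 6 h and 0.37 at 12 h. PFN1, whose product profilin binds actin monomers, rose at 6, 12 and 24 h (0.24, 0.18 and 0.41).

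Myocardin itself, the muscle member of the MRTF family, was well expressed. MYOCD had 67.0 to 106 CPM in control 0 h and 182 to 202 CPM at 3 h, but 146 and 156 CPM in control 24 h. At 6 h it had 214 to 224 CPM, at 12 h 144 and 63.5 CPM, and at 24 h 81.3, 101 and 132 CPM, the last 3 below both libraries of control 24 h. The change at 24 h was -0.53 (edgeR adjusted p 0.138) and that at 12 h 0.18 (adjusted p 0.648), or 0.66 without replicate 2 (adjusted p 0.0437). MYOCD rose against control 0 h at 3 h (1.10, SE 0.25, edgeR adjusted p 0.00417) and 6 h (1.26, SE 0.25, edgeR adjusted p 0.00114). It did not pass the test against control 24 h (0.37, edgeR adjusted p 0.340, and 0.53, edgeR adjusted p 0.143). Of 5 muscle markers MYOG was at 0 in every group, and the summed level of the list ran from 1.47 to 12.5 CPM. Among the 4 MEF2 genes, whose products are relatives of SRF in the MADS family, MEF2D and MEF2A rose at 3 h (0.51 and 0.36) and fell at 12 h (-0.39 for both). At 6 h these genes parted, with MEF2A called higher (0.19) and MEF2D called lower (-0.16), and MEF2C was called lower (-0.83). MEF2D was also called lower at 24 h (-0.22).

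Minor transcripts of ELK1 and ELK4 had different estimated reads in control and drug libraries. ELK1-202 had 0 reads in all 5 control libraries and in 3 of the 11 LatB libraries, and 13 to 46 reads in the other 8. ELK4-201 had 0 to 14 reads in the controls, 44 to 57 at 3 h, 37 to 49 at 6 h, 9 and 26 at 12 h, and 21 to 40 at 24 h. They made up at most 5.7% of ELK1 reads and 5.1% of ELK4 reads, and they were not tested. In TPM their highest shares, both at 6 h, were 22.6% of ELK1 and 19.0% of ELK4. ELK1-201 and ELK1-203, which share most ELK1 reads, each took between 25.5% and 73.9% of them with wide spread inside groups. Of the MRTFB reads, MRTFB-202 took 80.1% to 95.3%, and of the ELK3 reads ELK3-201 took 92.0% to 100%.

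Over all 16 libraries the genes whose log2 CPM ran most like that of SRF, among 10437 candidates, were LSM6 (Pearson r 0.94), MYO5C (0.93), ZYX (0.92), GALNT11 (0.91) and ACTB (0.91). ZYX, which encodes the focal adhesion protein zyxin, and ACTB are among the listed MRTF-SRF targets. For ELK4 they were EML4 (0.97), DPP8, RALGPS2, NIPAL1 and ETNK1, for ELK1 R3HDM1 (0.95), RBBP8, KCTD5, CUL3 and E2F6, and for ELK3 APBB2 (0.92), RPAP2, MTOR, CNOT11 and UBR1. For MRTFA they were FBXW7 (0.95), BRD1, UBAP2 and RAB35, and for MRTFB VLDLR (0.90), MAP9, HERC1, PKD2 and HS6ST2. No gene was shared between these lists. The libraries share groups and depth, so these values describe a common time course and carry no p.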

How the data were processed

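Poly(A) RNA was sequenced from 16 libraries. Per the labels, the submitters' processing notes name Salmon 1.3.0, DESeq2 and the build hg38, while the study's methods name STAR with its gene count option and a GENCODE annotation. The settings and transcript set behind the salmon tables are not given in the sources used here. For each library the authors deposited estimated counts and TPM for 177456 transcripts. Of these, 165533 matched GENCODE v44 (GRCh38) by identifier, 151923 of them in the same version, and the unmatched held 2.92% to 3.17% of reads. A deposited table of fold changes, standard errors, p-values and 16 columns of per-sample values was not used.

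Estimated counts were summed per gene and rounded. They were tested with the two-sided quasi-likelihood test of edgeR 4.0.16 in R 4.3.3. A single model held all 6 groups, with TMM scaling (factors 0.947 to 1.05), filterByExpr and Benjamini-Hochberg adjustment over 16705 genes. Calls were made below an adjusted p of 0.05. SE is the log2 fold change divided by the square root of F. CPM used TMM-scaled totals. Salmon shares reads among similar transcripts, so near-identical copies are uncertain. ELK3 rested on 95 to 441 reads per library, the fewest of the 6 genes.

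The 6 genes, the gene lists and the tests were chosen with earlier results of these data known. Named were the 6 genes, the 3 largest called rises and falls of each list per LatB comparison (values of these genes at further times, and ACTB, were added after values were seen), the 5 genes most correlated with each of the 6 (mean log2 CPM of at least 3; 1 of those for MRTFA is not reported here), and transcripts with at least 10% of a gene's TPM. Lists were described by counts and medians. Replicate numbers did not pair libraries: same-numbered libraries deviated together with correlations of -0.24 to 0.12 over 36 pairs. Alternatives were DESeq2 1.42.0, RLE or no scaling, no filter or a mean of 50 counts, an offset for transcript length, protein-coding transcripts alone, limma-trend 3.58.1 on log2(TPM + 1) and log2(TPM + 0.1), a replicate block, compared groups alone, another control, an adjusted p under 0.01, and leaving out each library. List counts at 12 h without replicate 2 were added after seeing the data. On simulated counts for 3 h with 16449 genes, edgeR recovered 93% of 200 changed genes with 5.58% false calls. The simulated log2 changes had a size of 1 or 2 in either direction, in genes with a mean above 1 CPM. Most changes of the 6 genes are smaller than these, and recovery of such changes was not tested. Recovery by size of change was not tested. Recovery with as many changed genes as the 5271 called at 3 h was not tested either.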

Additional observations from a re-analysis of the deposited data

Results flagged for a closer look

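The effect of LatB on SRF differed between 24 h and 3 h by 0.52 on the log2 scale (SE 0.11, edgeR adjusted p 0.00378), in a test of the difference between both effects, each against its own control. The control of the 3 h effect, control 0 h, is not matched in time. SRF changed by -0.35 at 3 h, with 3 of 3 libraries below control 0 h, and by 0.18 at 24 h, with 2 of 3 libraries above both of control 24 h.

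The same test gave a difference of -0.60 for ELK4 (SE 0.09, edgeR adjusted p 0.000523). ELK4 changed by 0.32 at 3 h, with 3 of 3 libraries above control 0 h, and by -0.28 at 24 h, with 3 of 3 libraries below control 24 h. No group had enough samples for a test of outlying libraries.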

How the results depend on the processing

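Of 22 called changes of the 6 genes, 11 kept their call in every alternative: SRF at 3, 6 and 12 h, from 6 h to 24 h and in the difference of effects, ELK4 at 3 and 12 h, from 3 h to 6 h and in the difference, ELK1 at 24 h, and ELK3 from 6 h to 24 h. Over 954 values under alternatives, 804 kept direction and side of the threshold, 76 lost the call, 19 gained it and 55 changed sign. ELK3 has the fewest reads, 95 in its lowest library, and 2 groups hold only 2 libraries.

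The number of the 6 genes called moved as follows. At 3 h it was 2 in place of 4 in all limma fits. At 6 h it was 2 in place of 4 without scaling, without a filter, with the length offset, with protein-coding transcripts and at an adjusted p under 0.01, and 1 in the limma fits. From 3 h to 6 h it was 1 in place of 2 with the length offset and in the limma fits. From 6 h to 24 h it was 2 in place of 4 without a filter, in the limma fits and at an adjusted p under 0.01. At 24 h it was 1 in place of 3 in the unfiltered limma fit and 5 against control 0 h. The difference of effects without control libraries, chosen after seeing the data, called 4 in place of 2. Leaving out 1 library gave 1 to 4 at 24 h, 2 to 4 from 6 h to 24 h and 2 to 4 at 6 h (at 24 h the lowest count came without control 24 h replicate 1).

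Signs changed for small values. MRTFA was -0.0052, -0.0053 and -0.0052 at 3 h and -0.087, -0.090 and -0.087 at 6 h in the limma fits on log2(TPM + 1), log2(TPM + 0.1) and without a filter. At 12 h it was -0.35, -0.37 and -0.35 in these, -0.37 with the length offset, -0.00040 without a filter, -0.014 with protein-coding transcripts and -0.011 with the compared groups alone. In the difference it was 0.011 in all limma fits, from 6 h to 24 h 0.00070 without scaling, and at 24 h -0.00053 with protein-coding transcripts. MRTFB was -0.088, -0.0076, -0.019 and -0.041 at 6 h without scaling, without a filter, with a mean of 50 counts and with protein-coding transcripts, 0.060 in the difference without scaling, and -0.020 between controls with protein-coding transcripts. ELK1 in the difference was 0.051 without scaling, 0.14 with the length offset and 0.19, 0.20 and 0.19 in the limma fits. ELK3 at 3 h was -0.067 without scaling, -0.0032 with a mean of 50 counts and -0.040 with protein-coding transcripts, and ELK4 from 6 h to 24 h was 0.060 without scaling. Leaving out 1 library, values crossed 0 in the ranges -0.11 to 0.0083 for ELK1 in the difference, -0.12 to 0.11 for ELK3 at 3 h, -0.047 to 0.095 for ELK4 between controls, -0.025 to 0.029 for MRTFA at 12 h, -0.038 to 0.06 for MRTFB between controls, -0.12 to 0.019 for MRTFB in the difference, -0.27 to 0.015 for MRTFB at 12 h and -0.037 to 0.062 for MRTFB at 6 h.

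With the replicate number as a block, MRTFA at 12 h was -0.0068 and MRTFB between controls -0.016. The block ended the calls of ELK3 at 12 h (0.77, adjusted p 0.0944), ELK4 at 6 h (adjusted p 0.0512) and MRTFB from 6 h to 24 h (adjusted p 0.0593), 5 of 16 libraries correlated best with their own number, and counts of called genes stayed within 1.5 times except between controls, where 6 genes were called in place of 42. Over all genes, counts of calls past 1.5 times the one reported ran from 2 to 265 in place of 42 between controls (2 without control 0 h replicate 1, 265 with DESeq2). They were 3143 and 3400 in place of 5271 at 3 h, 4768 in place of 7230 at 6 h, 2828 to 3926 in place of 5988 at 12 h, 4034 to 4484 in place of 6809 at 24 h (4034 without control 24 h replicate 1), 4116 and 4136 in place of 6323 from 6 h to 24 h, and 1359 to 2032 in place of 3710 from 3 h to 6 h. In the difference they were 2497 to 3012 (the latter without control 24 h replicate 1) and, without control libraries, 7397 in place of 4665.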
